A study of Homo sapiens with 4 samples.

Results

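PBRM1, ARID2, BRD7 and PHF10 are the 4 genes whose protein products distinguish PBAF from the other SWI/SNF chromatin remodelling complexes. They were taken by symbol from the deposited gene table, in which each symbol occurred once, and so they are 4 of 58735 genes. The RNA came from PBRM1 CRISPR knockouts of HEK293T, a line derived from human embryonic kidney. These cells received, for 48 h, a plasmid for GFP-tagged PBRM1 carrying P1048R, T1202K or C1233W, or the unaltered sequence (WT). There was 1 library for each of the 3 mutants and 1 for WT, so every group shared the knockout background and no difference has a replicate check. The labels do not say whether the knockout line was 1 clone, nor which promoter drove the plasmid, and knockout cells that received no plasmid were not analysed here.

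SWI/SNF complexes use ATP to slide or evict nucleosomes. Canonical BAF, PBAF and non-canonical BAF (ncBAF) share a catalytic core and differ in a few subunits. In PBAF, ARID2 is the scaffold that takes the place held by ARID1A or ARID1B in BAF. BRD7, a bromodomain protein, and PHF10, a PHD finger protein, join it, and PBRM1 brings a row of bromodomains and a pair of BAH (bromo-adjacent homology) domains that contact chromatin. PBRM1 is best known as a tumour suppressor of clear cell renal carcinoma.

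The residues named by the 3 constructs were located first, since the codons carry the designed difference between the libraries. Of the PBRM1 transcripts in GENCODE release 29, PBRM1-201 (1689 residues), PBRM1-202 (1582) and PBRM1-205 (1634) encode the proline, threonine and cysteine that the construct names give, at the positions they give, so the names follow the numbering of these isoforms. The reference coding sequence around each codon, from GENCODE, is given 5′ to 3′ on the coding strand, with the codon in capitals and 12 bases on each side:
P1048R: tttaagttatgcCCAgaaaacttccga
T1202K: cacccagaagaaACAgagcatgagccc
C1233W: attctcggaaagTGTgctgtgttgtca
On GRCh38 the 3 codons lie on the minus strand of chromosome 3, at 52586668 to 52586670 in exon 20, at 52576626 to 52576628 in exon 22 and at 52564226 to 52564228 in exon 23 of the 30 exons of PBRM1-201. The 12 bases before the third codon come from exon 22, across the splice junction. The substituted proline belongs to the first BAH domain, and the threonine and cysteine to the second. The bases that the plasmids carry at these codons were not analysed here.

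The libraries held 11205322 counted reads for P1048R, 10993748 for T1202K, 10348552 for C1233W and 10246250 for WT. Levels are given as CPM, the reads of a gene per 1e+06 reads of the library, with library sizes adjusted by TMM (a trimmed mean of log ratios), and with exact 95% Poisson intervals in parentheses. For a count of 0 the one-sided limit of 3 reads was taken as the floor, or 0.251 to 0.321 CPM. All intervals cover counting error only. Of the genes taken as expressed in HEK293T cells, the neurofilament genes NEFM and NEFL were at 172 to 345 and 78.8 to 140 CPM. The other genes of that list were low, with PAX2 at 5.65 to 7.12 CPM and LHX1 at 4.52 to 5.35 CPM. The blood genes CD3E and HBB had no reads and PTPRC at most 1. Of 3 fibroblast markers, COL1A1 was at 15.8 to 30.2 CPM, LUM at 1.09 to 2.22 CPM and DCN at 0 or 1 read, and the hepatocyte gene ALB was at 0.214 to 1.74 CPM. NEFM and NEFL were highest in WT. ALB had 2 reads in WT and 4 in T1202K, within counting error of each other, and 18 in each of P1048R and C1233W. The part of these genes in the differences between libraries was not tested.

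PBRM1 (ENSG00000163939, minus strand of chromosome 3, 52545352 to 52685917) had more reads than any other gene in each of the 4 libraries. It held 105120 reads in P1048R, 172834 in T1202K, 625534 in C1233W and 212792 in WT. These corresponded to 8805 CPM in P1048R (8752 to 8859), 15262 in T1202K (15190 to 15334), 60509 in C1233W (60359 to 60659) and 22768 in WT (22671 to 22865). The order was therefore P1048R, T1202K, WT and C1233W from low to high, and no neighbours in it had overlapping counting intervals. Against WT, the log2 ratio was −1.37 for P1048R (−1.38 to −1.36), −0.58 for T1202K (−0.59 to −0.57) and 1.41 for C1233W (1.40 to 1.42).

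Per length, PBRM1 ranked lower than by reads. Divided by the 9654 bases of its merged exons, its level was 912 RPKM (reads per kilobase of exon and 1e+06 reads) in P1048R, 1581 in T1202K, 6268 in C1233W and 2358 in WT, which placed it 17th, 15th, 4th and 17th among all genes. The longest annotated coding sequence has 5067 bases, and which untranslated bases the plasmid carries was not analysed here. Gene counts do not separate RNA of the plasmid from RNA of the edited locus, and they check neither the knockout nor the substitutions. Nor can a larger share of transfected cells and more RNA in each cell be told apart in these bulk libraries.

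At the same locus, GNL3 was ordered differently from PBRM1, while the order of SMIM4 was within counting error. GNL3, which encodes the nucleolar GTPase nucleostemin, overlaps the start of PBRM1 on the opposite strand without sharing exon bases. It was at 282 CPM in P1048R, 285 in T1202K, 272 in C1233W and 380 in WT. SMIM4, which shares 146 exon bases with PBRM1 on the opposite strand, was at 5.74 to 7.79 CPM in the mutants and at 7.06 in WT, with overlapping intervals. The nearest genes outside the locus likewise differed from PBRM1 in order: NT5DC2 was at 131, 155 and 137 CPM in P1048R, T1202K and C1233W and at 153 in WT. On the other side the snoRNA gene RF01183 had at most 1 read. GLT8D1, the nearest coding gene there (named after its values were seen), was at 42.2, 44.1 and 45.6 CPM in P1048R, T1202K and C1233W and at 53.1 in WT. The snRNA genes within PBRM1, RNU6-856P and RNU6ATAC16P, had at most 3 reads in any library.

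**Figure D1:**
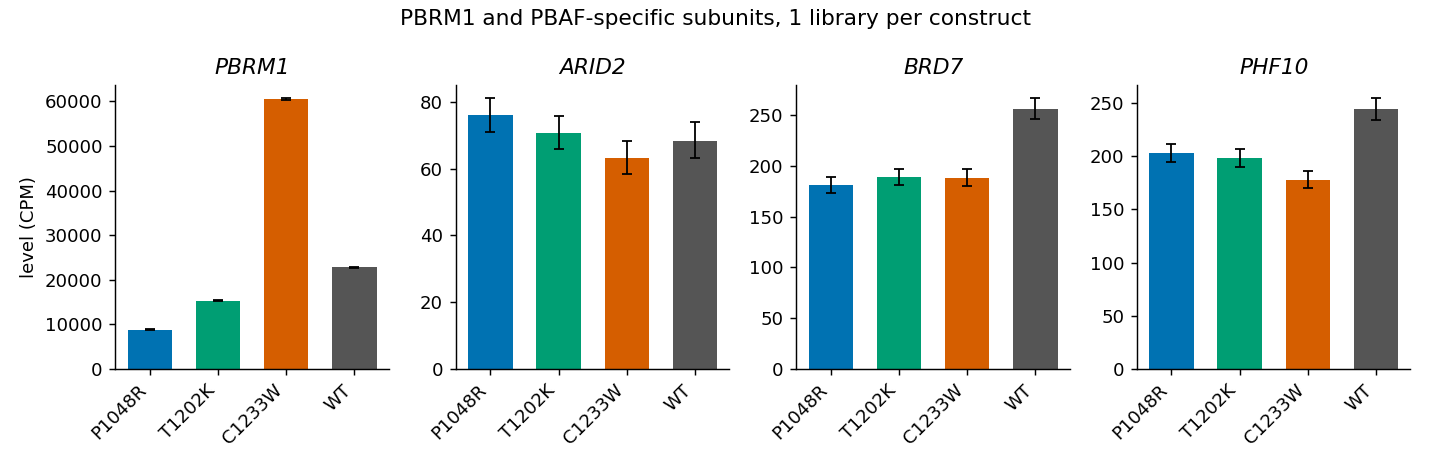
Levels of PBRM1, ARID2, BRD7 and PHF10 (CPM, linear axes from 0, a separate scale per gene) in the P1048R, T1202K, C1233W and WT libraries. Bars are single libraries and error bars are 95% Poisson intervals of the counts. PBRM1 spans 8805 to 60509 CPM, whereas ARID2 stays between 63.1 and 75.9 CPM and BRD7 and PHF10 are highest in WT.

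ARID2 (ENSG00000189079, plus strand of chromosome 12, 45729665 to 45908040), the PBAF scaffold, was the member with the fewest reads: 906 in P1048R, 799 in T1202K, 652 in C1233W and 639 in WT. Its level was 75.9 CPM in P1048R (71.0 to 81.0), 70.6 in T1202K (65.7 to 75.6), 63.1 in C1233W (58.3 to 68.1) and 68.4 in WT (63.2 to 73.9). From high to low, the order was P1048R, T1202K, WT and C1233W, and each neighbouring pair overlapped in counting error. The log2 ratio to WT was 0.15 for P1048R (0.0029 to 0.30), 0.05 for T1202K (−0.11 to 0.20) and −0.12 for C1233W (−0.28 to 0.04). The interval of P1048R included 0 when the libraries were thinned to equal depth (−0.0049 to 0.30) or a trend with GC content and length was removed (−0.01 to 0.28), and that of T1202K excluded it on total-count scaling (0.22, 0.07 to 0.37).

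BRD7 (ENSG00000166164, minus strand of chromosome 16, 50313487 to 50368934), the bromodomain subunit, was lower in each mutant library than in WT. It had 2160 reads in P1048R, 2143 in T1202K, 1945 in C1233W and 2394 in WT, or 181 CPM in P1048R (173 to 189), 189 in T1202K (181 to 197), 188 in C1233W (180 to 197) and 256 in WT (246 to 267). The 3 mutant libraries overlapped with each other and not with WT. The log2 ratio to WT was −0.50 for P1048R (−0.59 to −0.42), −0.44 for T1202K (−0.52 to −0.35) and −0.45 for C1233W (−0.53 to −0.36). On total-count scaling these ratios were −0.28 for P1048R (−0.36 to −0.19), −0.26 for T1202K (−0.35 to −0.18) and −0.31 (−0.40 to −0.23) for C1233W, smaller with intervals still below 0. Of the merged exon bases of BRD7, 3593 of 8492 are shared with ADCY7 on the opposite strand, and with the strand setting unknown the treatment of reads there is not known. ADCY7 itself was at 5.53 CPM in P1048R, 7.06 in T1202K, 7.64 in C1233W and 5.88 in WT. The pseudogene BRD7P2 had 5 to 15 reads and BRD7P4 at most 2, while BRD7P1, BRD7P5 and BRD7P6 had none in any library.

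PHF10 (ENSG00000130024, minus strand of chromosome 6, 169703905 to 169725566), the PHD finger subunit, was also highest in WT. It had 2425 reads in P1048R, 2248 in T1202K, 1842 in C1233W and 2283 in WT, equal to 203 CPM in P1048R (195 to 211), 199 in T1202K (190 to 207), 178 in C1233W (170 to 187) and 244 in WT (234 to 255). The values of P1048R and T1202K overlapped, C1233W lay below both and WT above all 3. The log2 ratio to WT was −0.27 for P1048R (−0.35 to −0.18), −0.30 for T1202K (−0.38 to −0.21) and −0.46 for C1233W (−0.54 to −0.37). On total-count scaling the ratio of P1048R shrank to −0.04 (−0.13 to 0.04) and that of T1202K to −0.12 (−0.21 to −0.04). The size of both differences thus depends on the scaling. The interval of P1048R then included 0, and that of T1202K stayed below it. C6orf120, which shares 184 exon bases with PHF10 on the opposite strand, was at 49.0 CPM in P1048R, 44.6 in T1202K, 49.0 in C1233W and 36.4 in WT. The antisense RNA gene AL354892.2, annotated on the strand of PHF10, shares 146 exon bases with it and had 20 to 36 reads.

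These ratios can be read against the 16262 genes that reached 1 CPM in any library. By a size rule (at least 2-fold, with an interval that excludes 0), 1 of 4 members differed between P1048R and WT, none between T1202K and WT and 1 between C1233W and WT, where 7.5%, 5.15% and 5.4% of all genes did. PBRM1 was the member in both cases, lower in P1048R and higher in C1233W. An interval that excludes 0 at any size was found for 4, 3 and 3 members, against 51.0%, 44.5% and 44.6% of all genes. Between libraries of this depth, an interval that excludes 0 was thus common. The highest level over the 4 libraries exceeded the lowest 6.87-fold for PBRM1, 1.42-fold for BRD7, 1.37-fold for PHF10 and by less for ARID2, where the median of all genes was 1.45-fold.

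The sizes of the BRD7 and PHF10 differences lay toward the lower side of all genes. The lower quartile of log2 ratios was −0.35 for P1048R, −0.28 for T1202K and −0.28 for C1233W against WT, and the lowest decile −0.69, −0.58 and −0.52. BRD7 was below the lower quartile in all 3 comparisons and PHF10 in T1202K and C1233W, neither reached the lowest decile, and ARID2 lay between the quartiles each time. The median over all genes was −0.04, −0.0097 and −0.0087. The median of the 3 members other than PBRM1 was −0.27 in P1048R, −0.30 in T1202K and −0.45 in C1233W.

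Between mutants, PBRM1 again differed most among the members. It was higher in T1202K than in P1048R by a log2 ratio of 0.79 (0.78 to 0.80), in C1233W than in P1048R by 2.78 (2.77 to 2.79) and in C1233W than in T1202K by 1.99 (1.98 to 1.99). The size rule was met by PBRM1 alone in the comparisons with C1233W and by no member between T1202K and P1048R, beside 1.24% of all genes for T1202K against P1048R, 4.54% for C1233W against P1048R and 3.54% for C1233W against T1202K.

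ARID2 and PHF10 were lower in C1233W than in the other two mutants. ARID2 had a log2 ratio of −0.27 (−0.41 to −0.12) to P1048R and −0.16 (−0.31 to −0.01) to T1202K, and PHF10 of −0.19 (−0.28 to −0.10) and −0.16 (−0.25 to −0.07). BRD7 was within counting error in all 3 pairs of mutants, with intervals of −0.02 to 0.15 for T1202K against P1048R, −0.03 to 0.15 for C1233W against P1048R and −0.10 to 0.08 for C1233W against T1202K. Removal of the GC and length trend moved BRD7 in T1202K against P1048R to 0.11 (0.03 to 0.20), out of counting error. Intervals excluded 0 for 1 member between T1202K and P1048R (28.9% of all genes), for 3 between C1233W and P1048R (42.4%) and for 3 between C1233W and T1202K (39.4%). For T1202K against P1048R, ARID2 also excluded 0 on total counts (−0.15, −0.29 to −0.01), as BRD7 did with the trend removed.

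Within a library, PBRM1 exceeded its partners by large factors. Per length of merged exons, PBRM1 stood at 146 times ARID2 in P1048R, 272 times in T1202K, 1205 times in C1233W and 418 times in WT. Its ratio to BRD7 was 42.8 in P1048R, 70.9 in T1202K, 283 in C1233W and 78.2 in WT, and that to PHF10 was 24.8, 44.1, 195 and 53.4 in the same libraries. Thus in the library with the least PBRM1, P1048R, its RNA still exceeded that of each partner subunit more than 10-fold, also per coding length (12.8 times PHF10).

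Among the other 3 members, PHF10 had the highest level per length and ARID2 the lowest in each of the 4 libraries. RPKM values were 36.7 for PHF10, 21.3 for BRD7 and 6.26 for ARID2 in P1048R, and 44.1, 30.2 and 5.64 in WT, with T1202K (35.9, 22.3 and 5.82) and C1233W (32.2, 22.2 and 5.20) alike in order. These within-library ratios need no scaling between libraries. The BRD7 to ARID2 ratio was 3.40 in P1048R, 3.83 in T1202K and 4.26 in C1233W, against 5.35 in WT, a log2 change of −0.65 (−0.82 to −0.48), −0.48 (−0.65 to −0.31) and −0.33 (−0.51 to −0.15). The PHF10 to ARID2 ratio was 5.87, 6.17 and 6.19 in P1048R, T1202K and C1233W, against 7.83 in WT.

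The PBAF-specific subunits were then set beside their counterparts in the other complexes. The DPF proteins are the PHD finger subunits of canonical BAF, as PHF10 is of PBAF. DPF2, the widely expressed one, was at 109 CPM in P1048R, 113 in T1202K, 89.6 in C1233W and 79.7 in WT, so it was lowest where PHF10 was highest. The PHF10 to DPF2 ratio per exon length was 2.60 in P1048R (2.43 to 2.78), 2.45 in T1202K (2.28 to 2.62), 2.77 in C1233W (2.56 to 3.00) and 4.27 in WT (3.93 to 4.65). The WT value lay above all 3 mutants, with log2 changes of −0.72 (−0.87 to −0.56), −0.80 (−0.96 to −0.65) and −0.62 (−0.79 to −0.46).

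The longest annotated transcript of PHF10 has 37.3% GC and that of DPF2 51.4%, where the median of the genes tested is 48.0%. After removal of the GC and length trend, this shift in the PHF10 to DPF2 ratio was −0.72 in P1048R, −0.69 in T1202K and −0.54 in C1233W. DPF1 and DPF3, the paralogs known from neurons and muscle, were less abundant. DPF1 was at 39.5 CPM in P1048R, 35.4 in T1202K, 30.8 in C1233W and 20.8 in WT, and DPF3 at 14.7, 13.2 and 11.6 in the mutants and 10.6 in WT. DPF1 was thus also lowest in WT, with intervals of the log2 ratio above 0 in the 3 mutants (0.69 to 1.18, 0.52 to 1.03 and 0.31 to 0.83). With the GC and length trend removed, DPF1 was at 0.77 in P1048R, 0.46 in T1202K and 0.38 in C1233W, with intervals above 0. DPF2 in C1233W against WT was then within counting error (0.13, −0.01 to 0.27).

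BRD9, the bromodomain paralog of BRD7 in ncBAF, was highest in WT too on TMM scaling. It was at 108 CPM in P1048R, 101 in T1202K, 81.1 in C1233W and 120 in WT. As an unscaled share of reads it was highest in P1048R (0.0115%), with 0.0104% in T1202K, 0.0081% in C1233W and 0.0109% in WT. The BRD7 to BRD9 ratio per exon length was 1.89 in P1048R (1.77 to 2.03), 2.11 in T1202K (1.97 to 2.27), 2.62 in C1233W (2.41 to 2.84) and 2.41 in WT (2.24 to 2.59). Relative to WT it was lower in P1048R (log2 change −0.35, −0.49 to −0.20) and T1202K (−0.19, −0.33 to −0.04), and within counting error in C1233W (0.12, −0.04 to 0.28). Once the GC and length trend was taken out, the change was −0.32 for P1048R (−0.46 to −0.17), −0.07 (−0.22 to 0.07) for T1202K and 0.20 (0.04 to 0.36) for C1233W, so the calls in T1202K and C1233W depend on that trend.

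ARID1A, the main ARID subunit of canonical BAF, was at 202 CPM in P1048R, 208 in T1202K, 185 in C1233W and 224 in WT. ARID1B, its paralog, was at 121, 114 and 100 CPM in P1048R, T1202K and C1233W, against 105 in WT. The ARID2 to ARID1A ratio per exon length was 0.495 in P1048R (0.458 to 0.534), 0.446 in T1202K (0.411 to 0.483), 0.447 in C1233W (0.408 to 0.488) and 0.401 in WT (0.366 to 0.438). As a log2 change this was 0.30 for P1048R (0.13 to 0.47), 0.15 (−0.02 to 0.32) for T1202K and 0.16 (−0.03 to 0.34) for C1233W. With the trend removed it was 0.32 (0.15 to 0.49), 0.31 (0.13 to 0.48) and 0.29 (0.11 to 0.47), above 0 in all 3 mutants, which share the WT library. The ARID2 to ARID1B ratio of counts was 0.625, 0.617 and 0.628 in the mutants and 0.654 in WT, and each change from WT was within counting error. Per exon length this ratio was 2.30 in P1048R, 2.27 in T1202K, 2.31 in C1233W and 2.41 in WT. Per coding length it was 0.79, 0.78, 0.80 and 0.83 in the same libraries, so which gene is higher depends on the length used.

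**Figure D2:**
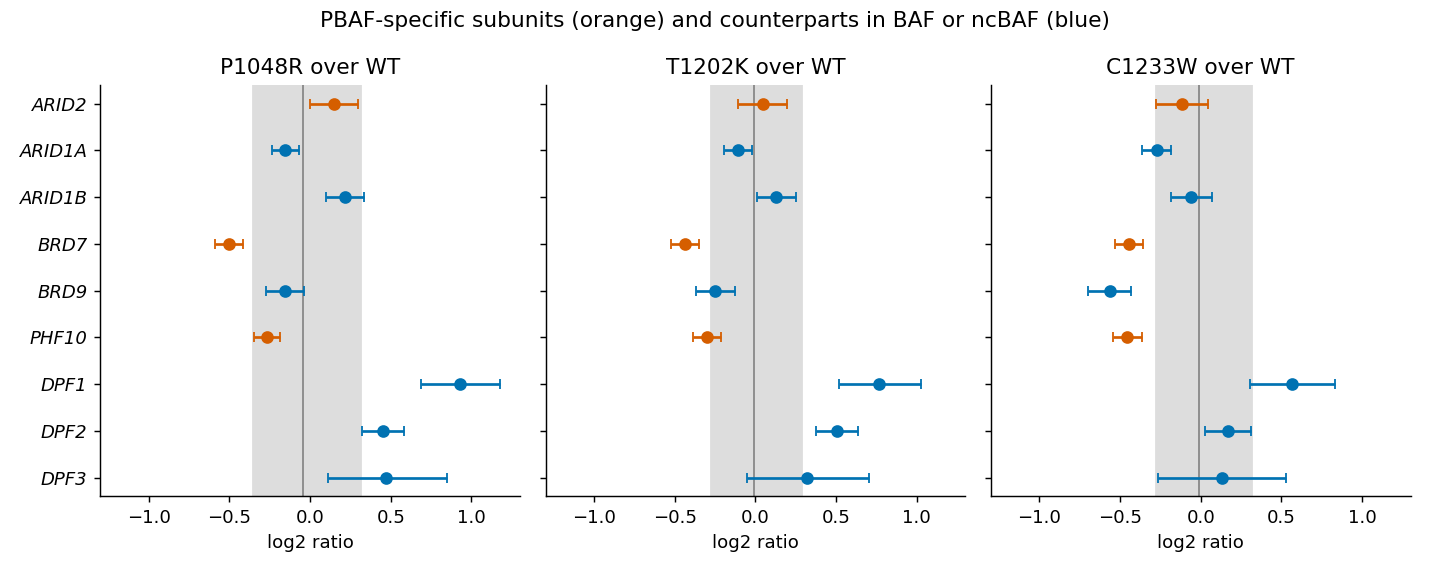
Log2 ratio of each mutant library over WT for ARID2, BRD7 and PHF10 (orange) and their counterparts in BAF or ncBAF (blue), with 95% counting intervals. The grey band spans the quartiles of all 16262 genes and the grey line their median. BRD7 lies left of the band in all 3 panels, while DPF1 lies right of it.

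**Figure D3:**
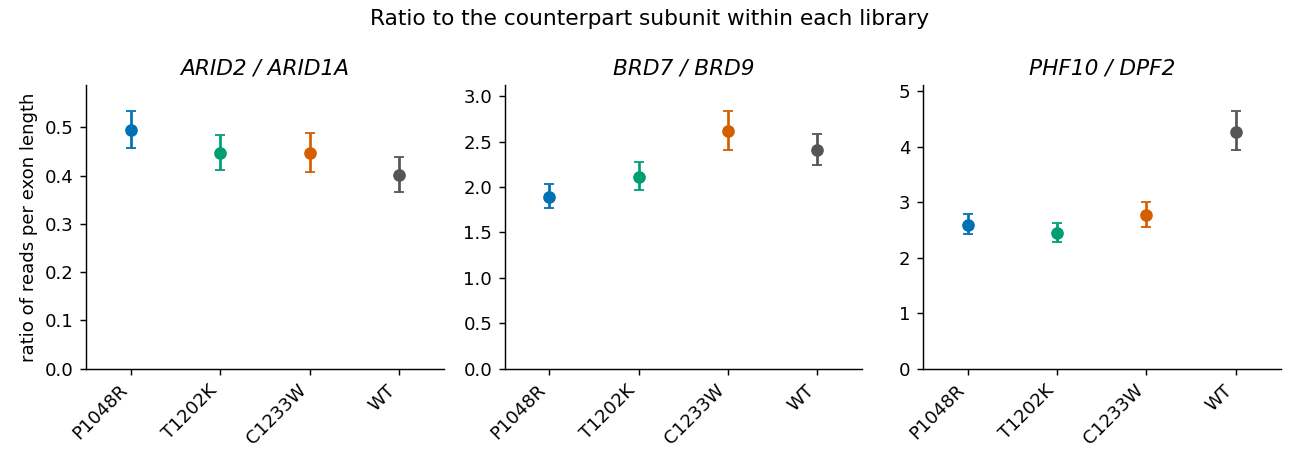
Ratio of ARID2 to ARID1A, BRD7 to BRD9 and PHF10 to DPF2 within each library, as reads per length of merged exons (linear axes from 0). Points are single libraries with 95% counting intervals. The PHF10 to DPF2 ratio is 4.27 in WT and 2.45 to 2.77 in the mutants.

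Other SWI/SNF subunits were mixed in P1048R and T1202K, and in C1233W core intervals on TMM scaling lay below 0 more often than above. The 15 core subunits shared with BAF had a median log2 ratio of −0.12 in P1048R, 0.06 in T1202K and −0.17 in C1233W against WT. Intervals lay above 0 for 6 of them and below for 8 in P1048R, for 5 and 3 in T1202K, and for 1 and 8 in C1233W. Over all genes, 3881 lay above and 4406 below in P1048R, 3604 and 3633 in T1202K, and 3211 and 4038 in C1233W. On total counts the core median was 0.10 in P1048R, 0.23 in T1202K and −0.035 in C1233W. Its sign in P1048R and its size in all mutants thus depend on the scaling. The interval counts are for TMM scaling alone and depend on it too. SMARCA4, for example, had an interval below 0 in C1233W but a larger share of reads there (0.0336%) than in WT (0.0324%). SMARCC1, a scaffold of the core, was at 368, 387 and 374 CPM in P1048R, T1202K and C1233W, against 480 in WT. The ATPase gene SMARCA4 had log2 ratios of −0.19, −0.04 and −0.08. SMARCD3 passed the size rule in P1048R at the limit of 2-fold (1.00, 0.77 to 1.24), at 45.7 CPM against 22.8 in WT. ACTL6B, the neuronal actin-like subunit, passed it in P1048R and T1202K, on 11 and 15 reads against 1 in WT. The ratios were 8.61 (1.25 to 371) and 12.4 (1.90 to 521). ACTL6B reached 1 CPM in T1202K only (1.32 CPM), so it was tested through the library where it was highest. Its WT value of 0.107 CPM lay below the floor, so no difference is read from this gene.

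Of the 7 canonical BAF subunits, none passed the size rule in any mutant, which at 5.15% to 7.5% of all genes says nothing particular of so short a list, and on total counts 1 passed in P1048R. Their medians were 0.22 in P1048R, 0.13 in T1202K and −0.06 in C1233W. The 3 ncBAF subunits had medians of 0.96, 0.82 and 0.83, but they did not move together. BRD9 had log2 ratios of −0.16 in P1048R, −0.25 in T1202K and −0.57 in C1233W, each with an interval below 0 on TMM scaling. As unscaled shares of reads, P1048R (0.0109% to 0.0121%) and T1202K (0.0098% to 0.0110%) overlapped WT (0.0103% to 0.0116%). The BRD9 calls in P1048R and T1202K thus depend on the scaling. BICRAL, one of the paralogous ncBAF scaffolds, had 485 reads in P1048R, 375 in T1202K and 304 in C1233W, against 150 in WT. It passed the rule in P1048R (2.53-fold, 2.10 to 3.06) and in T1202K (2.06-fold, 1.70 to 2.51), and was at 1.83-fold of WT in C1233W. BICRA, the other scaffold, was at 24.6, 22.3 and 22.4 CPM in P1048R, T1202K and C1233W and at 12.6 CPM in WT.

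The genes whose levels ran most like PBRM1 were sought among the 10749 genes with at least 10 CPM in 1 library, by the root mean square difference of log2 CPM over the 4 libraries after each profile was centred on its mean. The nearest was SLC2A3, which encodes the glucose transporter GLUT3 (chromosome 12, 7919230 to 7936275), with a difference of 0.14. It was at 27.7 CPM in P1048R, 42.1 in T1202K, 145 in C1233W and 61.6 in WT, a 5.24-fold range beside 6.87-fold for PBRM1. HSPA6, an inducible HSP70 chaperone gene, followed at 3.27, 6.36 and 28.5 CPM in P1048R, T1202K and C1233W and 13.8 in WT (difference 0.26). STC1, the gene of the glycoprotein hormone stanniocalcin, was at 2.85, 3.27 and 16.3 CPM in the mutants and 8.45 in WT (0.30). It reached 10 CPM in C1233W only. In P1048R and T1202K, HSPA6 had 39 and 72 reads and STC1 had 34 and 37.

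The next in line, PPFIA4 (0.48), of the liprin family of synaptic scaffolds, and NRN1 (0.51), a neurite growth protein gene, had narrower ranges of 2.90-fold and 2.54-fold. All 5 genes had the order P1048R, T1202K, WT, C1233W from low to high, which their choice by nearness to PBRM1 favours. Of the 10749 genes, 446 (4.15%) had this order, PBRM1 included. SLC2A3 and HSPA6 each have a near-identical copy (SLC2A14 and the pseudogene HSPA7), so their reads are uncertain. With 4 libraries such a likeness is a description of these libraries. ARID2, BRD7 and PHF10 did not have this order.

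**Figure D4:**
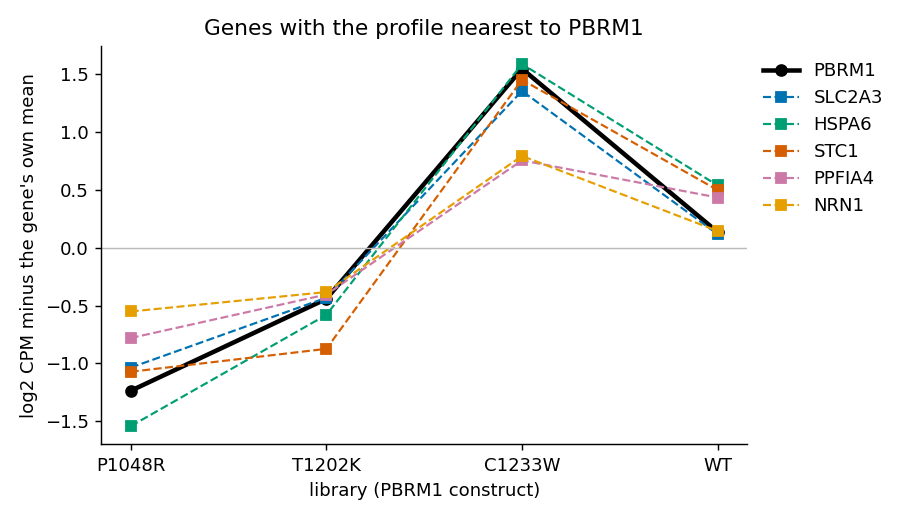
Log2 CPM of PBRM1 (black) and of the 5 genes with the nearest profiles, each minus its own mean over the P1048R, T1202K, C1233W and WT libraries. Points are single libraries, and lines only join the points of a gene. SLC2A3 follows PBRM1 most closely, with a root mean square difference of 0.14.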

How the data were processed

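The authors deposited raw read counts for each gene, as whole numbers with no normalization. The submitters' processing notes name Trim Galore, HISAT2, featureCounts and the build hg38; no version, annotation release, strand setting or handling of multi-mapping reads is stated in the labels. All 58735 identifiers matched GENCODE release 29 (GRCh38), from which coordinates, exon lengths, coding sequences and GC content were taken. TMM factors from edgeR 4.0.16 (R 4.3.3), used to scale library sizes, were 1.07 (P1048R), 1.03 (T1202K), 0.999 (C1233W) and 0.912 (WT). Log2 ratios were taken after 0.5 was added to each count. Their intervals are Clopper-Pearson intervals for how a gene's reads divide between both libraries, and intervals of a change in a within-library ratio from the usual log odds ratio approximation. No p-value was computed, because each construct had 1 library. The alternatives were total counts, DESeq2 1.42.0 size factors, PBRM1 left out of the scaling, thinned counts, other CPM minimums, other gene lengths and removal of a quadratic trend with GC content and log2 length. The procedure was tested on simulated data with Poisson error alone, so that test says nothing of variation between cultures. The members and lists were chosen with earlier results of these data known. Named genes are the members, their counterparts, overlapping and nearest genes, subunits past the size rule and the 5 nearest profiles to PBRM1; SMARCC1, SMARCA4, BICRA and GLT8D1 were added after their values were seen.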

Additional observations from a re-analysis of the deposited data

How the results depend on the processing

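Library scaling, the GC and length trend and the gene length each moved values of the members. With PBRM1 left out of the scaling, or with thinned counts, all 24 member ratios stayed inside their counting intervals. Total counts moved the median of all genes against WT to 0.19 in P1048R, 0.17 in T1202K and 0.13 in C1233W. On that scaling PBRM1 had log2 ratios of −1.15, −0.40 and 1.54 to WT, 0.74 for T1202K over P1048R, 2.69 for C1233W over P1048R and 1.94 for C1233W over T1202K. ARID2 was at 0.37 in P1048R and 0.22 in T1202K, BRD7 at −0.28, −0.26 and −0.31, and PHF10 at −0.042, −0.12 and −0.32, relative to WT. For C1233W over P1048R on total counts, BRD7 was at −0.036 and PHF10 at −0.28. With DESeq2 size factors PBRM1 was at −1.33, −0.56 and 1.43 to WT, 0.77 for T1202K over P1048R and 2.76 for C1233W over P1048R.

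Removal of the GC and length trend, chosen after seeing the data, gave −1.39 and −0.54 for PBRM1 in P1048R and T1202K, 0.88 for T1202K over P1048R, 2.81 for C1233W over P1048R and 1.94 for C1233W over T1202K, and 0.059 for PHF10 in T1202K over P1048R. It ended the interval call of ARID2 in P1048R over WT and added that of BRD7 in T1202K over P1048R.

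A minimum of 5 CPM, under which fewer genes are tested, left 603, 359 and 330 genes past the size rule in P1048R, T1202K and C1233W against WT, from 1219, 838 and 878, and 17, 201 and 124 between T1202K and P1048R, C1233W and P1048R, and C1233W and T1202K, from 201, 738 and 575. Core subunits past the rule numbered 1 in P1048R and 0 in T1202K with that minimum, and 2 in T1202K on total counts, where 1 canonical BAF subunit in P1048R and 2 ncBAF subunits in P1048R and 1 in C1233W also passed and the ncBAF median in C1233W was 0.96. DESeq2 size factors gave 2 ncBAF subunits in P1048R.

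Ratios of raw counts in P1048R, T1202K, C1233W and WT were 0.377, 0.339, 0.340 and 0.305 for ARID2 to ARID1A, 1.68, 1.87, 2.32 and 2.14 for BRD7 to BRD9, and 1.86, 1.75, 1.99 and 3.06 for PHF10 to DPF2. Per coding length, chosen after seeing the data, BRD7 to BRD9 was 1.54, 1.72, 2.13 and 1.96 and PHF10 to DPF2 1.51, 1.43, 1.62 and 2.49. A length moves all 4 libraries by 1 factor, so the order of libraries is the same.

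The cause of these shifts was not tested beyond what the construction of each alternative shows, and no member ratio turned its direction with an interval that excluded 0. No paired analysis was possible because each construct had 1 library. ARID2, with 639 to 906 reads per library, had the widest intervals of the members, and variation between cultures was not measured.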
